A study of Homo sapiens with 4 samples.

Results

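The clustered histone genes supply the bulk of the histones that a cell needs when it copies its DNA. They were taken here as the protein-coding genes whose older symbols begin with HIST, a cluster number and H, and 71 of the 20372 genes in the table of counts met this rule. RNA was sequenced from TPC1, an established human papillary thyroid carcinoma line that carries the CCDC6-RET fusion, after treatment with the RET inhibitor BLU6864. Libraries were made at 6 h and at 24 h, 2 of each. All 4 libraries came from the same line grown with serum, and each had received the inhibitor, so 24 h was compared with 6 h of treatment. The labels give a dose of 100 µM and the methods 100 nM, and in the labels the libraries at 24 h are marked as re-analysed. Those at 6 h do not carry this mark, so any difference tied to it cannot be told apart from time. Neither source states whether libraries of a time came from separate cultures, so p-values measure only the spread between these libraries, which may be technical.

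Histones wrap DNA into nucleosomes, in which H2A, H2B, H3 and H4 form the core and the linker histone H1 binds the DNA between cores. Most clustered genes are transcribed in S phase, and their mRNAs end in a conserved stem-loop in place of a poly(A) tail. The stem-loop is bound by SLBP, and the mRNAs are degraded when DNA synthesis stops, although some of these genes also give polyadenylated transcripts that run past the stem-loop. The labels name total RNA and a TruSeq RNA protocol, and whether poly(A) RNA was selected is not given in the sources used here.

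The stem-loop was found in GENCODE v44 transcripts of 71 of the 71 genes, and in 0.100% of the protein-coding transcripts of other genes. For members that the results turn on it read as follows in DNA letters from 5′ to 3′, with the 16-base stem-loop in capitals.
HIST1H1C: caaaaGGCTCTTTTCAGAGCCacc
HIST1H2AC: ccaaaGGCTCTTTTCAGAGCCccc
HIST1H2BK: ccaaaGGCTCTTTTAAGAGCCact
HIST1H4H: ccaaaGGCCCTTTTCAGGGCCgcc
HIST2H2BE: ccaaaGGCTCTTTTCAGAGCCacc
HIST1H2AG: ccaacGGCTCTTTTCAGGGCCacc
HIST2H2AC: ccaaaGGCTCTTTTTAGAGCCacc
HIST1H3G: aaaaaGGCTCTTTTAAGAGCCgcc
The form in HIST1H1C, HIST1H2AC and HIST2H2BE was shared by 41 members, and that in HIST1H2BK and HIST1H3G by 10. The form in HIST1H4H was found in 10 members, while HIST1H2AG and HIST2H2AC each carried a form that 1 member had.

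The 24 h libraries held 26486456 and 27457040 counts in total, and those at 6 h held 23917056 and 26829072. Of the 71 clustered histone genes, 56 had at least 1 count and 15 had 0 counts in all 4 libraries. Another 15 had at most 3 counts in every library. A further 20 had more counts but too few for the test, with at most 11 counts in any library, and 21 genes were tested. A count of 0 allows up to 3 counts, or between 0.109 and 0.125 counts per 1000000 in these libraries, which covers counting error only. HIST1H4C, an H4 gene, had 3 and 1 counts at 24 h and 1 and 4 counts at 6 h, so no difference was detectable at this depth.

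**Figure D1:**
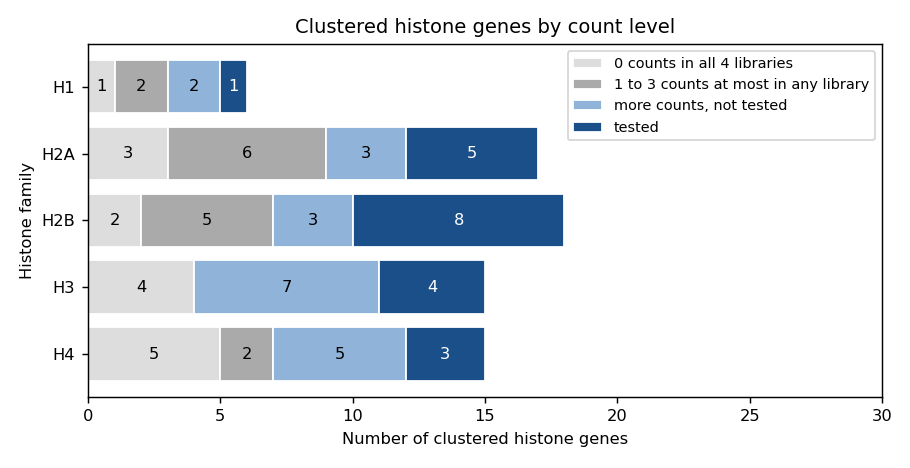
Number of clustered histone genes in each histone family, divided by the counts they had in the 4 libraries. Of the 71 genes, 21 had enough counts to be tested, 8 of them in the H2B family and 1 in the H1 family.

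Together the 71 genes had 8029 and 8243 counts at 24 h and 4602 and 5207 counts at 6 h. As counts per 1000000 of the library this was 303 and 300.2 at 24 h against 192 and 194 at 6 h. Both 24 h libraries lay above both 6 h libraries, and the ratio of the means was 1.56. Most of these counts came from HIST1H2AC, HIST1H2BK and HIST1H1C, which held 78.1% and 78.7% of the members' counts at 24 h and 64.6% and 64.3% at 6 h. Without these 3 genes, a choice made after their values were seen, the ratio turned to 0.949, and without HIST1H1C alone it was 1.34. The higher sum at 24 h therefore rested on a few genes, and the other members summed to 1760 and 1755 counts at 24 h and 1629 and 1857 at 6 h. In bulk RNA, a change in the share of cells in S phase and a change in histone mRNA per cell cannot be told apart.

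Counts were compared with edgeR's quasi-likelihood test over 12876 genes, and a gene was called when the log2 fold change of 24 h over 6 h exceeded 0.5 in size with an unadjusted P under 0.01. By this rule 5 clustered histone genes rose, where 17.4% of all genes tested did, and 7 fell, where 17.7% of all genes did. The median log2 fold change of the 21 genes tested was 0.23, with a range from -2.35 to 1.69, against 0.0029 for all genes tested. Where all 56 members with counts entered, the median lay under 0, at -0.65 with DESeq2 and -0.62 in edgeR with no filter. The members added there had at most 11 counts in any library, so these medians rest in large part on low counts. The median was 0.13 without BLU24H replicate 1, where 22 members were tested, and without BLU6H replicate 1, where 23 were. It was 0.35 without BLU6H replicate 2. Both 24 h libraries lay above both 6 h libraries in 10 of the 21, beside 41.0% of all genes tested, and under them in 9, beside 40.8%. The genes tested are not all members. Of those that fell, HIST2H2AC, HIST1H3G and HIST1H2BH reached the count minimum in the 6 h libraries alone, so they entered the test only because they were higher there. With no filter 56 members entered, and the number that fell was also 7, all of them shared with the 7 above. Over all 16333 genes that entered there, 2331 fell and 2314 rose.

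**Figure D2:**
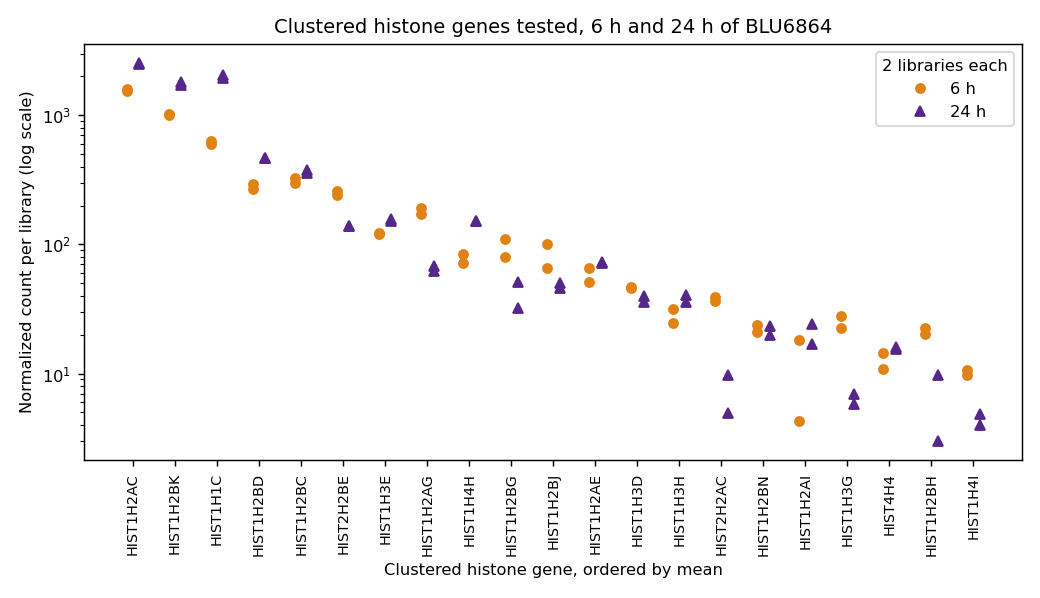
Normalized counts of the 21 clustered histone genes tested, on a log axis, with circles for the 2 libraries at 6 h and triangles for the 2 libraries at 24 h. HIST1H1C stands apart by its higher values at 24 h, while HIST2H2AC and HIST1H2AG lie lower at 24 h.

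HIST1H1C (ENSG00000187837), on chromosome 6 of hg19 from 26055968 to 26056699, encodes the linker histone H1.2. Its normalized counts were 1942 and 2060.1 at 24 h and 637 and 603 at 6 h. The times did not overlap, and the gene rose by a log2 fold change of 1.69 (Benjamini-Hochberg adjusted P = 1.28e-16 in edgeR, standard error, SE, 0.0765). Its level per length was 101 and 105 reads per kilobase of gene span and 1000000 counts at 24 h and 33.7 and 32.0 at 6 h. The other H1 genes reached at most 0.288 on this scale, in HIST1H1T, the testis linker histone. HIST1H1A, the H1.1 gene, had 0 counts in every library, and HIST1H1C was the sole H1 gene of the 6 that was tested.

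HIST1H2AC (ENSG00000180573), an H2A gene, had normalized counts of 2499.7 and 2543 at 24 h and 1544 and 1609.9 at 6 h. Both values at 24 h were the higher ones, and the log2 fold change was 0.68 (adjusted P = 3.28e-09 in edgeR, SE 0.0701). HIST1H2AG, another H2A gene, had 61.8 and 68.1 at 24 h and 192 and 171 at 6 h. It went the other way without overlap, with a log2 fold change of -1.48 (adjusted P = 9.56e-09 in edgeR, SE 0.162). HIST2H2AC had 4.98 and 9.73 at 24 h against 36.7 and 39.3 at 6 h. It fell with a log2 fold change of -2.35 (adjusted P = 4.91e-06 in edgeR, SE 0.376), and it rests on low counts at 24 h, where the gene did not reach the count minimum. HIST1H2AE, with 71.7 and 73.0 at 24 h and 50.7 and 65.2 at 6 h, had a log2 fold change of 0.31 (SE 0.203) and did not pass. The value was 0.15 without BLU6H replicate 1 and 0.51 without BLU6H replicate 2. Of 17 H2A genes, 5 were tested, 1 rose and 2 fell, beside 17.4% and 17.7% of all genes tested. HIST1H2AI, which did not pass, had 17 and 25 counts at 24 h and 4 and 19 at 6 h. It was added to those that rose without BLU6H replicate 2, where 6 h held only the count of 4. In that fit the gene entered the test by its 24 h counts alone.

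The H2B genes also moved both ways. HIST1H2BK (ENSG00000197903) had normalized counts of 1804 and 1711 at 24 h and 1029 and 1001 at 6 h. The times were separate, with a log2 fold change of 0.79 (adjusted P = 2.92e-10 in edgeR, SE 0.0723), but its span holds that of HIST1H4I, and 42.8% of the 50-base windows of its stem-loop transcript are unique to it, so its count is uncertain. The window follows the 50 bp single-end reads of the labels, while the methods name paired-end reads of 100 cycles, and the share depends on this length. HIST1H2BD, an H2B gene with a long span, had 464 and 466 at 24 h and 294 and 271 at 6 h. It rose with a log2 fold change of 0.72 (adjusted P = 6.24e-07 in edgeR, SE 0.101). HIST1H2BC, with 379 and 356 at 24 h and 327 and 298 at 6 h, was separated by less, and its log2 fold change of 0.23 (adjusted P = 0.0516 in edgeR, SE 0.105) did not pass.

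HIST2H2BE, an H2B gene on chromosome 1, had normalized counts of 138 and 138 at 24 h and 239.7 and 261 at 6 h. It fell with a log2 fold change of -0.86 (adjusted P = 2.00e-06 in edgeR, SE 0.129). HIST1H2BG had 50.8 and 32.1 at 24 h and 79.9 and 110.3 at 6 h. The libraries of a time lay further apart than in HIST2H2BE, but the times did not overlap, and the log2 fold change was -1.21 (adjusted P = 4.40e-05 in edgeR, SE 0.227). HIST1H2BJ had 45.8 and 50.6 at 24 h and 100.4 and 65.2 at 6 h, and its log2 fold change was -0.76 (adjusted P = 0.00393 in edgeR, SE 0.222). HIST1H2BH had 2.99 and 9.73 at 24 h and 22.7 and 20.1 at 6 h, and its log2 fold change was -1.72 (adjusted P = 0.00206 in edgeR, SE 0.463). Both are lower at 24 h in all libraries, but their calls did not hold in every setting. Without BLU24H replicate 1 the log2 fold change was -0.69 for HIST1H2BJ and -1.12 for HIST1H2BH, without BLU6H replicate 1 it was -0.44 and -1.64, and neither passed. With a library left out, the spread comes from the other time alone. Without BLU24H replicate 2 HIST1H2BH was at -2.78. DESeq2 also called neither, although the log2 fold changes were -0.78 and -1.75 there, and in each of these 3 cases the number of H2B genes that fell was 2 in place of 4. Of the 18 H2B genes 8 were tested, and over all genes tested 17.7% fell.

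Among the H3 genes, HIST1H3G had normalized counts of 6.97 and 5.84 at 24 h and 22.7 and 27.8 at 6 h, and fell with a log2 fold change of -1.97 (adjusted P = 0.000197 in edgeR, SE 0.419). It too reached the count minimum at 6 h alone. HIST1H3E, with 158 and 151 at 24 h and 121 and 123 at 6 h, was higher at 24 h in both libraries. Its log2 fold change of 0.34 (unadjusted P = 0.0253 and adjusted P = 0.0396 in edgeR, SE 0.144) passed neither the fold change cutoff nor the P cutoff. Of the 15 H3 genes 4 were tested, and 0 rose by edgeR and by DESeq2, with 1 at an unadjusted P under 0.05, while 17.4% of all genes tested rose. HIST1H4H, an H4 gene, had 152 and 151 at 24 h and 72.3 and 84.4 at 6 h. It rose with a log2 fold change of 0.95 (adjusted P = 1.14e-05 in edgeR, SE 0.161). HIST1H4E, with 11 and 9 counts at 24 h and 6 and 1 at 6 h, had too few counts for the test with all libraries. Without BLU6H replicate 1 it was added to those that rose, but 6 h then held only the count of 1. In that fit the gene entered the test by its 24 h counts alone. Of the 15 H4 genes 3 were tested and 1 rose, beside 17.4% of all genes tested. HIST1H4I, with 4 and 5 counts at 24 h and 9 and 11 at 6 h, was lower at 24 h in both libraries. Its log2 fold change of -1.17 did not pass, and it too reached the count minimum at 6 h alone.

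**Figure D3:**
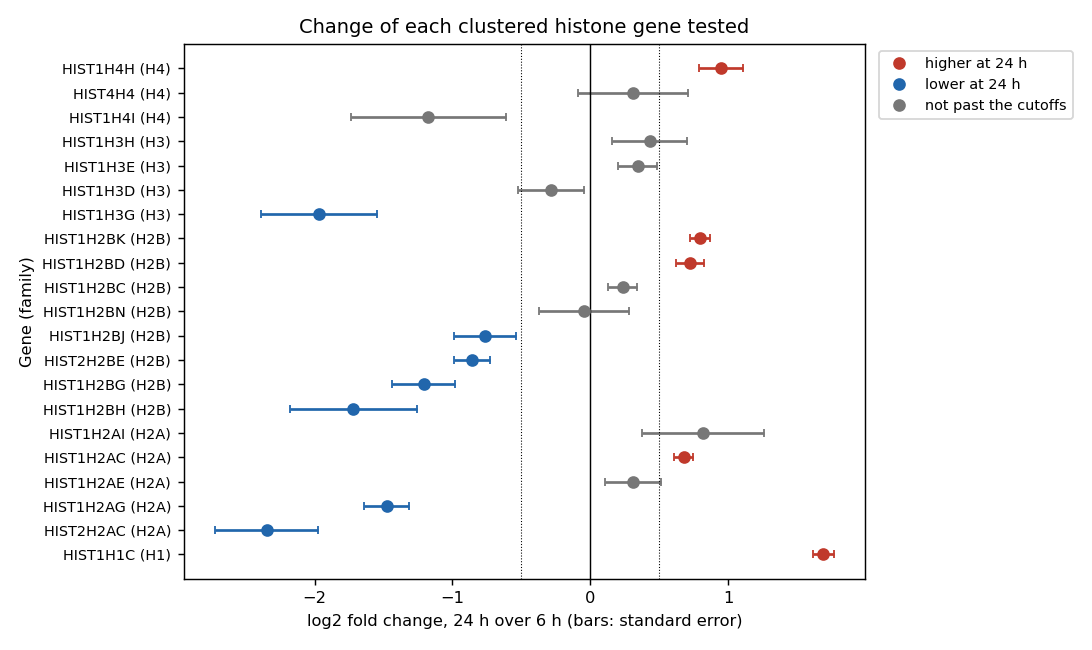
Log2 fold change of 24 h over 6 h for the 21 clustered histone genes tested, grouped by family, with bars for the standard error and dotted lines at 0.5 and -0.5. Among the genes called, rises and falls stand side by side within the H2A and H2B families, from -2.35 in HIST2H2AC to 0.79 in HIST1H2BK. HIST1H1C lies furthest to the right at 1.69.

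By position in hg19, 55 members lay on chromosome 6 between 25726291 and 27861669, 12 on chromosome 1 between 149400131 and 149859466, 3 on chromosome 1 between 228612546 and 228646259, and 1, HIST4H4, on chromosome 12. In the chromosome 6 cluster 18 genes were tested, of which 5 rose and 5 fell. With DESeq2 the number that fell there was 3, since HIST1H2BH and HIST1H2BJ were not called. Both are also counted as falls in the groups by span and by transcript below. In the larger chromosome 1 cluster 2 were tested, HIST2H2BE and HIST2H2AC, and both fell. Members with a span over 1000 bp in the table, 20 genes, held 73.0% of the members' counts, with a median of 72.5 counts over the 4 libraries, and 4 rose and 3 fell. The 51 shorter ones had a median of 6 counts, and 1 rose and 4 fell. A GENCODE transcript that ends at least 100 bases past the stem-loop, or a coding transcript that lacks it, was listed for 18 members. Of these 10 were tested, 3 rose and 2 fell, while of the other 53 members 11 were tested, 2 rose and 5 fell. HIST1H1C and HIST1H2BK are among the 53. The split follows GENCODE v44, while the counts follow hg19 positions. There HIST1H2BK and HIST1H2AG, also among the 53, span 8547 and 2239 bp, against 495 and 493 bases for their stem-loop transcripts in GENCODE. The annotation that was counted may thus hold longer transcripts for some of the 53. Over all genes tested, 17.4% rose and 17.7% fell, and differences between these groups of members were not tested. HIST1H3G and HIST1H2BH on chromosome 6 and HIST2H2AC are among the 4 short members and the 5 of the 53 that fell, and they reached the count minimum at 6 h alone.

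Some members could not be measured apart from near-identical copies. In 8 genes under 10% of the 50-base windows of the stem-loop transcript were unique, and together they had 34 counts. These are the pairs HIST2H2AA3 and HIST2H2AA4, HIST2H3A and HIST2H3C, HIST2H4A and HIST2H4B, and HIST1H4J and HIST1H4K. A further limit is overlap: the spans of 12 members overlap another gene of the table, and while the methods refer to a stranded kit, the counting program and its strand setting are not given in the sources used here. Without these 12, a choice made once the data were seen, 4 members rose and 7 fell, beside 17.4% and 17.7% of all genes tested. HIST1H2AD, with 0 counts in every library, lies within the span of HIST1H3D, and both are on the minus strand in RefSeq. Strand could not separate their reads, so these 0 counts need not mean absence.

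H2A and H2B genes often lie back to back and share the DNA between their starts. Promoters from RefSeq, 250 bases before to 50 after the start in GRCh38.p14, were matched for 66 of the 71 members. The promoters, from 5′ to 3′, are those of HIST1H1C, which rose, of HIST1H2AC, which rose while HIST1H2BC across the same stretch did not pass, and of HIST1H2AG and HIST2H2AC, which fell together with the H2B gene across the same stretch. Capitals mark the letters searched on both strands, which were TATAAA, the CCAAT box, the octamer ATTTGCAT and the H1 motif AAACACA, with neighbouring or overlapping matches run together.
HIST1H1C: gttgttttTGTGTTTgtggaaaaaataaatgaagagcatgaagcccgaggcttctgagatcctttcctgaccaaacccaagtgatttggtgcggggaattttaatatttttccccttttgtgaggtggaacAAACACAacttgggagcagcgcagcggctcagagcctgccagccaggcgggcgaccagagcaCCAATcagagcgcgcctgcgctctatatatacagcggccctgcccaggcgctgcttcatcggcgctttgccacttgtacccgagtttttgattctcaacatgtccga
HIST1H2AC: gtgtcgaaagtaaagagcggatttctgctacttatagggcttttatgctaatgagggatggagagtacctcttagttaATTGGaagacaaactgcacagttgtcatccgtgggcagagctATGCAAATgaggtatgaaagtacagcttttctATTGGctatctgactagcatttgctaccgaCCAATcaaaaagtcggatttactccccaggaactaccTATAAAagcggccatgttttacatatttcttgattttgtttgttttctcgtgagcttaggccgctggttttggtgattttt
HIST1H2AG: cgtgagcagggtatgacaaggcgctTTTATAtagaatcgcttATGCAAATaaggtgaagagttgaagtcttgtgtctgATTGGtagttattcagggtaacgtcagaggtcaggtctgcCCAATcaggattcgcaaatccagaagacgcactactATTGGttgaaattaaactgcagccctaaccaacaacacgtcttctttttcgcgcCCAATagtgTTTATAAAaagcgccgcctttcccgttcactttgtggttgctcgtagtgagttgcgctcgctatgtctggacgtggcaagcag
HIST2H2AC: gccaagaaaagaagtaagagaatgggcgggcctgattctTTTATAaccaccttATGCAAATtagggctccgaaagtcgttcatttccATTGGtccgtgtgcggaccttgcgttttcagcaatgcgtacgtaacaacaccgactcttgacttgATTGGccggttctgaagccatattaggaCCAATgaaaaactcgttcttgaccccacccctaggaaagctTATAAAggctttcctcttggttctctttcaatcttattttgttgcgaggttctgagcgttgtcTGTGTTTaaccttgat
HIST1H1C lies at chr6:26056421-26056720 on the minus strand. HIST1H2AC lies at chr6:26123922-26124221 and HIST1H2AG at chr6:27132793-27133092, both on the plus strand. HIST2H2AC lies at chr1:149886668-149886967 on the plus strand.

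ATTTGCAT, the octamer known to bind POU2F1, was in 26 of the 66 member promoters and in 1.77% of 35116 RefSeq promoters. It was in 11 of 16 H2A promoters and 14 of 18 H2B promoters, and in 0 of the 6 H1 and 13 H4 promoters. AAACACA, a motif known from H1 promoters, was in 9 of the 66 member promoters, among them 6 of 6 H1 promoters, and in 5.64% of all promoters. The others were HIST2H2AC, HIST2H3A and HIST2H3C, and of the carriers tested HIST1H1C rose and HIST2H2AC fell. CCAAT was in 56 of the 66 against 34.6% of all, and TATAAA in 44 of the 66 against 11.5%. Of the members with ATTTGCAT 11 were tested, 2 rose and 6 fell, and of those without it 10 were tested, 3 rose and 1 fell, beside 17.4% higher and 17.7% lower among all genes tested. The difference between these groups was not tested, and HIST1H2BH and HIST1H2BJ, which are among the 6, were not called with DESeq2. HIST1H2BH and HIST2H2AC, also among the 6, reached the count minimum at 6 h alone. Back-to-back genes share the stretch between their starts, so the same octamer can be counted in the promoters of both. This was so for HIST2H2BE and HIST2H2AC, HIST1H2BJ and HIST1H2AG, HIST1H2BC and HIST1H2AC, and HIST1H2BG and HIST1H2AE. The promoters with the motif, and the genes that rose or fell with it, are therefore not all separate. HIST1H2AC rose with the motif and HIST1H1C without it, and a match describes the letters only.

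Members on opposite strands started between 194 and 248 bases apart in 12 pairs, and in 4 of these both genes were tested. HIST2H2BE and HIST2H2AC, whose starts lie 236 bases apart, both fell, and so did HIST1H2BJ and HIST1H2AG, 248 bases apart. HIST2H2AC reached the count minimum at 6 h alone, and HIST1H2BJ was not called with DESeq2, without BLU24H replicate 1, at -0.69, or without BLU6H replicate 1, at -0.44. In the pair of HIST1H2BC and HIST1H2AC the H2A gene rose and the H2B gene did not pass, with log2 fold changes of 0.68 and 0.23. In the pair of HIST1H2BG and HIST1H2AE the H2B gene fell and the H2A gene did not pass, with -1.21 and 0.31, the latter 0.15 without BLU6H replicate 1 and 0.51 without BLU6H replicate 2. Whether the genes of a pair differ from each other was not tested.

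**Figure D4:**
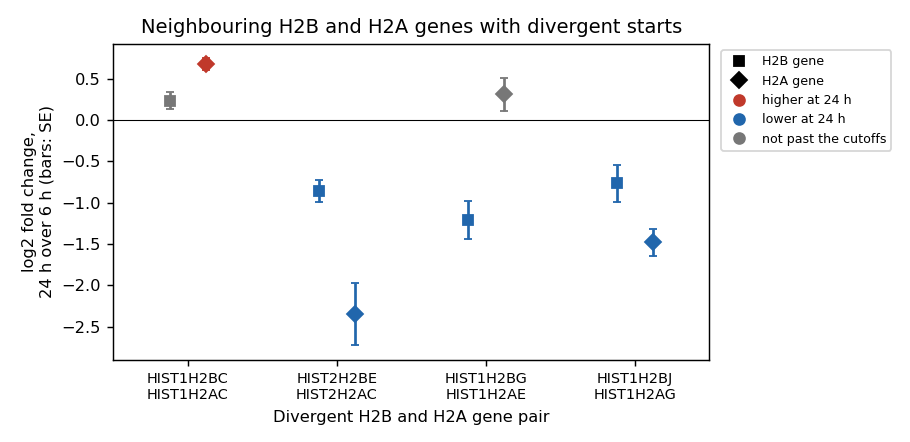
Log2 fold change of 24 h over 6 h, with bars for the standard error, in the 4 divergent pairs of H2B genes (squares) and H2A genes (diamonds) in which both were tested. In 2 pairs both genes fell, and in the pair of HIST1H2BG and HIST1H2AE the values are -1.21 and 0.31. Of the genes in those 2 pairs, HIST2H2AC reached the count minimum at 6 h alone, and HIST1H2BJ was not called with DESeq2.

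Histone genes outside the clusters, most of whose mRNAs carry a poly(A) tail, were taken from a list of 19 variant genes. Of the 12 tested, 9 fell and 0 rose by edgeR and by DESeq2, with 1 higher at an unadjusted P under 0.05, and their median log2 fold change was -1.00. Over all genes tested 17.7% fell and 17.4% rose. H2AFZ, the H2A.Z gene, had 3831 and 4023 counts at 24 h and 13182 and 16195 at 6 h. H3F3B, an H3.3 gene, had 8037 and 8185 at 24 h and 15748 and 17703 at 6 h. Both were lower at 24 h without overlap, with log2 fold changes of -1.94 (SE 0.0782) and -1.09 (SE 0.0755). H1F0, the linker variant H1.0, fell with -1.59, the reverse of HIST1H1C, and CENPA, the centromeric H3, fell with -4.68. H2AFX, the DNA damage variant, fell with -2.04, and H3F3C, an H3F3B-derived gene whose reads may be shared with it, with -1.33.

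Of 30 genes that act in the transcription of histone genes or the processing and decay of their mRNAs, 29 were tested, 1 rose and 3 fell, beside 17.4% and 17.7% of all genes tested, with a median log2 fold change of -0.10. SLBP had 2146 and 2015 counts at 24 h and 1826 and 2070 at 6 h. Its libraries overlapped, and its log2 fold change was 0.05 (SE 0.0712). NPAT, a coactivator of histone genes, had a log2 fold change of -0.15 (SE 0.0839) and did not pass. The value was -0.089 without BLU6H replicate 1 and -0.22 without BLU6H replicate 2. CCNE2, the cyclin E2 gene, and CDK2, its kinase, which phosphorylates NPAT, fell with log2 fold changes of -2.43 and -1.09, and PATL1, a decapping factor, rose with 0.87. The cyclin E1 gene, CCNE1, overlapped between the times and did not pass, with a log2 fold change of -0.17 (SE 0.237). CPSF3, the endonuclease of histone mRNA ends, fell with -0.52 but did not pass without BLU24H replicate 2, at -0.44, or without BLU6H replicate 1, at -0.46. Without BLU24H replicate 1 the number that fell was 6, and without BLU24H replicate 2 or BLU6H replicate 1 the number that rose was 2, with HINFP added.

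Histone chaperones carry histones to DNA. Of 29, 28 were tested, 14 fell and 1 rose, beside 17.7% and 17.4% of all genes tested, with a median of -0.58. HJURP, OIP5 and MIS18A, which load CENPA, fell with log2 fold changes of -4.75, -3.14 and -1.84, and ASF1B, an H3 and H4 chaperone, with -3.82. HIRA, which deposits H3.3, rose with 0.54 and was named after its value was seen, since it was the sole one to rise. It did not pass with DESeq2, with library size alone or without BLU6H replicate 2, and in each of these the number was 0. Of 23 S phase genes in the table, all tested, 22 fell and 0 rose by edgeR and by DESeq2, with 0 higher at an unadjusted P under 0.05, and the median was -2.01. CDC45, CCNA2, RRM2, CLSPN and E2F1, which act in replication or its control, fell with -4.57, -4.48, -3.92, -3.51 and -3.30, and SLBP was the gene not called. MCM6, at -0.51, was called here but not with upper quartile scaling, where the number that fell was 21. It also lost its call without BLU24H replicate 2 and without BLU6H replicate 1.

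**Figure D5:**
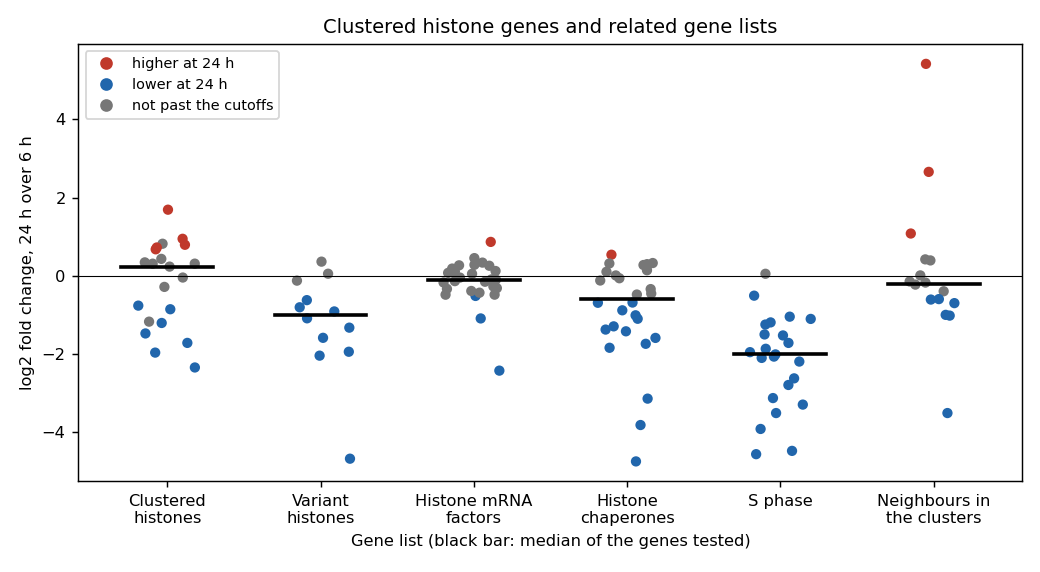
Log2 fold change of 24 h over 6 h for each gene tested, 1 point a gene, in the clustered histone genes and 5 related lists, with a black bar for the median of the genes tested and points spread sideways for view. The clustered histone genes lie on both sides of 0, with a median of 0.23 for the 21 tested. Their median is -0.62 for the 56 that enter with no filter, where those added have at most 11 counts in any library. The S phase genes lie low with a median of -2.01.

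Among thyroid markers, PAX8 had between 19124 and 22978 counts in every library and FOXE1 and TG were present, whereas NKX2-1 and TSHR had 0 counts in all 4 libraries and SLC5A5 at most 7. The 6 markers of white blood cells summed to 7 and 2 counts at 24 h and 3 and 7 at 6 h. The 6 fibroblast markers summed to 146 and 164 counts at 24 h and 265 and 283 at 6 h, with COL1A2 and COL3A1 at 0 in all 4 libraries. COL1A1 gave 63 and 95 of these counts at 24 h and 218 and 237 at 6 h, while LUM, which rose, gave 71 and 66 at 24 h and 39 and 40 at 6 h. Mitochondrial genes took 1.40% and 1.56% of counts at 24 h and 1.65% and 2.43% at 6 h, and their part in the histone results was not tested.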

How the data were processed

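Expression was measured in TPC1 cells given BLU6864, in 2 libraries at 6 h and 2 at 24 h. Per the labels, reads were aligned to hg19 with STAR 2.3 by the authors, while the methods name another version. The authors deposited raw counts per gene and a normalized signal, the count divided by a DESeq2 size factor. The authors also deposited their own DESeq2 comparison, whose columns hold log2 fold changes and their errors, a Wald score, and p-values before and after adjustment. These columns were not used here. The number of columns of values per sample that were not mapped was 0.

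The members and the gene lists were chosen with earlier results of these data known. Counts of all 20372 genes entered edgeR 4.0.16 under R 4.3.3 (TMM, filterByExpr, quasi-likelihood), with time as the factor, and 12876 genes were kept. Normalized counts are raw counts over each library's TMM-scaled size, itself taken relative to the average of the 4. Standard errors were derived from the fold change and the F statistic. P was adjusted over all genes tested by the Benjamini-Hochberg method. The biological coefficient of variation was 0.0521. The procedure was also run on simulated data, but the outcome is not given here and no result rests on it. Lists were variant histones, histone mRNA factors, chaperones, S phase genes and cluster neighbours, with markers of thyroid, white blood and fibroblast cells. Named were members with a mean normalized count of at least 50, the 10 largest rises and falls among members called, at most 5 called genes per list, and SLBP, NPAT, H2AFZ, H3F3B and H1F0. Genes named because their count was 5 or fewer, LUM, MCM6 and CCNE1 were chosen after their values were seen.

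Alternatives were DESeq2 1.42.0, scaling by upper quartile or by library size alone, no filter, a mean count of at least 10, a replicate block, an adjusted P under 0.05 with no fold cutoff, and each library left out. Libraries of a time differed by more than sampling noise, since chi-square over its degrees of freedom was 7.91 for 24 h and 10.4 for 6 h. Promoters and transcripts were matched by Ensembl identifier or RefSeq symbol, and protein sequences were not used here. Figures come from matplotlib 3.10.9 under Python 3.11.15.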

Additional observations from a re-analysis of the deposited data

How the results depend on the processing

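The number of clustered histone genes that rose was 5 under DESeq2, upper quartile scaling, library size alone, no filter and a mean count of at least 10, 6 with an adjusted P under 0.05 and no fold cutoff, and from 5 to 6 with each library left out. The number that fell was 5 with DESeq2 and from 5 to 7 with each library left out. With DESeq2 56 members entered in place of 21, and over all 16333 genes that entered there 2003 rose and 2083 fell. The median log2 fold change of the members was -0.65 with DESeq2 and -0.62 without a filter, where 56 members also entered. Both values rest in large part on added members with at most 11 counts in any library. The median lay between 0.13 and 0.35 with each library left out. The ratio of summed counts was 1.61 with TMM scaling, 1.34 without HIST1H1C, 0.949 without HIST1H1C, HIST1H2AC and HIST1H2BK, 1.54 without members whose spans overlap another gene, and between 1.55 and 1.57 with each library left out. These alternatives for the ratio were chosen after seeing the data.

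The number of H2B genes that fell was 2 with DESeq2 and between 2 and 4 with each library left out, the number of H2A genes that rose was between 1 and 2, and that of H4 genes between 1 and 2. With adjusted P under 0.05 and no fold cutoff, 1 H3 gene, 1 variant histone, 7 histone mRNA factors, 6 chaperones and 5 neighbours rose. In that setting 9 histone mRNA factors, 17 chaperones, 7 neighbours, 9 variant histones and 22 S phase genes fell. The share of all genes that pass this looser cutoff is not given here, so these counts have no share to be set beside. Of the mRNA factors 5 fell with library size alone, between 2 and 6 with each library left out, and between 1 and 2 rose. Chaperones that rose numbered 0 with DESeq2 and with library size alone, and between 0 and 1 with each library left out. With library size alone, 2499 of all 12876 genes tested fell and 2030 rose. SLBP changed sign to -0.0055 without BLU24H replicate 1, and with each library left out it lay between -0.0055 and 0.12. CPSF3 was -0.49 with upper quartile scaling and did not pass. Of 420 gene and setting combinations for 42 genes, 410 kept direction and side of the cutoffs. The cause of these moves was not tested, except that fewer or more genes enter without a filter.

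Replicate numbers occur at both times, but no source says what they mark, and same-numbered libraries correlated by 0.0757 in their deviations across genes. With the replicate number as a block, 5 members rose, 7 fell, and the median was 0.23. Low counts limit 50 of the 71 members, which were not tested.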

Other observations

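The clusters also hold 23 protein-coding genes that are not histones, 19 of them on chromosome 6. Of the 16 tested, 3 rose and 6 fell, beside 17.4% and 17.7% of all genes tested, with a median log2 fold change of -0.20. SLC17A1, a phosphate transporter gene, had 106 and 126 counts at 24 h and 1 and 4 at 6 h, and SLC17A3, an organic anion transporter, had 206 and 271 at 24 h and 31 and 42 at 6 h. Both lay higher at 24 h in every library, with log2 fold changes of 5.42 (SE 0.368) and 2.66 (SE 0.186). SLC17A1 had too few counts at 6 h to enter the test by them, and its log2 fold change was 6.56 without BLU6H replicate 2 and 4.85 without BLU6H replicate 1. TRIM38, a ubiquitin ligase, rose with 1.08. BTN3A2, a butyrophilin, fell with -1.02, and FAM72C, whose near-identical copies may share its reads, fell with -3.51. It had 4 and 2 counts at 24 h and 32 and 37 at 6 h, and so entered the test by its 6 h counts alone.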
